A study of Mus musculus with 3 samples.

Results

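The genes described here are 10 markers of liver sinusoidal endothelial cells (LSEC), the cells that line the blood channels of the liver. They were chosen by symbol from a list (Stab1, Stab2, Lyve1, Clec4g, Kdr, Tek, Pecam1, Eng, Cdh5 and Fcgr2b), and all 10 were found among the 23361 genes of the files. The mRNA of whole mouse liver was sequenced in 3 libraries, 1 for the sham group, 1 for the warm ischemia (WI) group and 1 for the ischemia followed by reperfusion (IR) group. All groups were labelled as livers of male C57BL/6J mice of 8 to 10 weeks, which had been fasted and anaesthetized with chloral hydrate. The sham mice had their abdomen opened without clamping, and their livers were taken when the clamping time of the other groups had passed. In the WI group the vessels and bile duct of the left and median lobes were clamped for 1.5 h. In the IR group the same 1.5 h of clamping was followed by 2 h of reperfusion. No sham group was kept for that longer time, so reperfusion and time after surgery cannot be told apart. How many mice gave RNA to each library is not given in the sources used here. With 1 library per condition no difference has a replicate check, no test of conditions was possible, and each library enters 2 of the 3 comparisons.

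LSEC have open pores and no basement membrane, and they clear waste molecules from the blood through scavenger and Fc receptors. They also depend on growth factor receptors and junction proteins that they share with other endothelium. The endothelium of the sinusoids is among the first tissues of the liver to be injured when blood returns after ischemia. Some of the 10 genes are not limited to LSEC. Stab1 and Lyve1 are also made by some macrophages, Lyve1 by lymphatic vessels, Pecam1 by platelets and leukocytes, and Fcgr2b by B cells and macrophages. In whole liver, fewer cells of a type and less RNA per cell cannot be told apart.

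The values are FPKM, fragments counted per length of transcript and per library size, each with the lower and upper 95% bound that Cuffdiff gave. The bounds reflect the model of the counts and not the spread between mice. For 9 of the markers each bound lay 46.3% to 54.3% of the FPKM away from it, and for Eng 67.8% to 81.2%. Changes are differences in log2(FPKM + 1), which understate the change of genes with low FPKM, and a gene was called changed when FPKM + 1 differed at least 2-fold. All 10 markers passed the filter, which asked that 1 or more libraries reach an FPKM of 1, as did 10792 genes in all. The label male was not borne out in all libraries. The FPKM of Xist, the RNA that coats the inactive X chromosome of female cells, was 18.9, 20.1 and 1.29 in the sham, WI and IR libraries. The Y-linked gene Eif2s3y was listed at 0 in the sham and WI libraries and had an FPKM of 13.2 in the IR library. Every comparison with the IR library therefore also compares libraries that differ in sex-linked transcripts, whereas in these transcripts the sham and WI libraries were alike. The deposited FPKM sum to 475754, 487912 and 712423 in the sham, WI and IR libraries. Genes with too many fragments for Cuffdiff (status HIDATA) numbered 1, 1 and 7 in the same order. Alb, which had that status in each library, is listed at 0. The part of such genes in the sums, and so in a scale made from them, was not tested. Rescaling each library to the same sum (TPM) moved the median change of all genes from 0.03 to -0.45 between IR and WI and from 0.05 to -0.45 between IR and sham. Rescaling by the median ratio, which lines up the typical gene by construction, left these medians at 0.02 and 0.05. Which scale is right was not tested. Changes of groups of genes are therefore also given relative to the median of all genes.

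For orientation, sequences are shown for 3 of the genes. Kdr was the marker whose FPKM + 1 fell past 2-fold from sham to IR as deposited. Clec4g was the marker with the highest level, and Stab2 is a scavenger receptor typical of LSEC. The sequences are the 250 bases before the RefSeq start of each gene. They come from GRCm38.p6, the build also called mm10, on the minus strand, at chr5:75978456-75978705 for Kdr, chr8:3720652-3720901 for Clec4g and chr10:87007943-87008192 for Stab2. Capitals mark GGAAG and its reverse complement CTTCC, a form of the core bound by ETS factors, which act in all endothelial cells. In Clec4g a pair of these matches overlap by 1 base.
Kdr: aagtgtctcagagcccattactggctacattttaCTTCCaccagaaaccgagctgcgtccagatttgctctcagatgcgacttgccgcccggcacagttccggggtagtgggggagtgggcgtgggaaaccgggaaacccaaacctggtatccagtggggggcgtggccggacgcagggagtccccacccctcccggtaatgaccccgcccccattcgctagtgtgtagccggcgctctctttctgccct
Clec4g: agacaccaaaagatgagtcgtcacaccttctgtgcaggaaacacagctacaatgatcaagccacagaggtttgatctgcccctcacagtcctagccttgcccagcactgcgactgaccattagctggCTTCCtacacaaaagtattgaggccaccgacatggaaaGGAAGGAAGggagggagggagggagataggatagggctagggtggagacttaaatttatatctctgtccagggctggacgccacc
Stab2: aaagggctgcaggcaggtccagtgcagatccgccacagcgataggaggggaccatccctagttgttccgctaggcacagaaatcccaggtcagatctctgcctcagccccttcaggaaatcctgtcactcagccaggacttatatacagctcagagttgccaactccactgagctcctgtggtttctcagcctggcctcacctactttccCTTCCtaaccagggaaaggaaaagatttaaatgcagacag
Of the 10 markers, 7 matched the RefSeq promoter table, and 6 of those 7 held GGAAG on either strand, against 64.1% of all 32851 windows of this length. GATAA, a form of the core bound by GATA factors, was searched on both strands too and was held by 0 of the 7 and by 22.6% of all windows. A match is a description of letters and not a binding site. The start used by the files was the same as the RefSeq start for Clec4g and Stab2 and differed by 27 bases for Kdr.

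The genes that take up material from the blood included Clec4g, which had the highest level in each library, and the stabilins, which held places 7 to 9 in each library. Clec4g is a C-type lectin of the sinusoidal lining, on chromosome 8 of mm10 (3716071 to 3720651). Its FPKM was 70.7 in the sham library (95% bounds 37.2 to 104), 55.9 in the WI library (29.7 to 82.1) and 41.4 in the IR library (22.2 to 60.6). It was lower at each step, with bounds that overlapped throughout. Fcgr2b, the inhibitory Fc receptor that clears small immune complexes, lies on chromosome 1 from 170960559 to 170976071. Its FPKM was 42.0 in the sham library (21.8 to 62.3), 36.4 in the WI library (19.0 to 53.7) and 23.5 in the IR library (12.3 to 34.7). Stab1 and Stab2 encode the stabilins, large scavenger receptors that take up hyaluronan, modified lipoproteins and other waste. Stab1 (chromosome 14, 31134853 to 31168641) gave FPKM values of 6.96 in the sham library (3.60 to 10.3), 4.72 in the WI library (2.46 to 6.97) and 4.21 in the IR library (2.18 to 6.24). Stab2 (chromosome 10, 86841210 to 87007942) gave values of 8.05 in the sham library (4.27 to 11.8), 5.47 in the WI library (2.94 to 8.01) and 5.17 in the IR library (2.77 to 7.56). Both stabilins were lower in WI than in sham and nearly level between WI and IR. The locus of Stab1 in the files overlaps that of Nt5dc2, whose FPKM was 3.50, 2.09 and 2.34 in the sham, WI and IR libraries, and whether the counting used strand is not stated.

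Lyve1, the hyaluronan receptor of sinusoidal and lymphatic endothelium, went its own way. It lies on chromosome 7 from 110850607 to 110862953. Its FPKM was 11.2 in the sham library (5.97 to 16.3), 2.73 in the WI library (1.25 to 4.21) and 33.4 in the IR library (17.5 to 49.3). The bounds were apart between every pair of libraries as deposited, but after rescaling to TPM those of the IR and sham libraries overlapped. Its FPKM was 4.09-fold higher in sham than in WI, 12.2-fold higher in IR than in WI, and 2.99-fold higher in IR than in sham. No other gene overlaps its locus in the files.

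**Figure D1:**
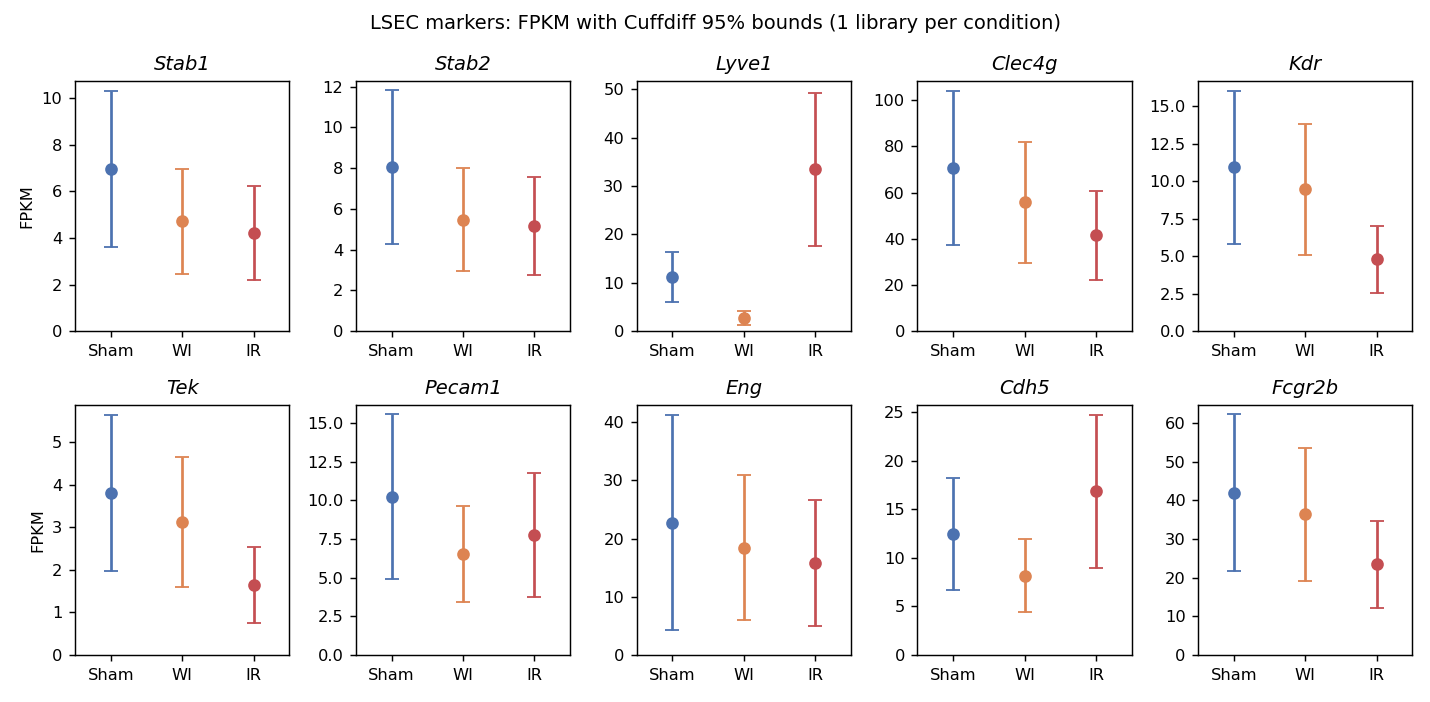
FPKM of the 10 LSEC markers in the sham, WI and IR libraries, 1 panel per gene with its own linear axis from 0; points are the deposited FPKM of 1 library and bars its Cuffdiff 95% bounds. Lyve1 runs 11.2, 2.73 and 33.4 with bounds apart, whereas 7 of the 10 genes are lower at each step with overlapping bounds from one step to the next.

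Among the markers, the growth factor receptors Kdr and Tek and the co-receptor Eng were lowest in the IR library. Kdr, the main receptor for VEGF-A, lies on chromosome 5 (75933270 to 75978428). Its FPKM was 10.9 in the sham library (5.83 to 16.0), 9.45 in the WI library (5.07 to 13.8) and 4.80 in the IR library (2.56 to 7.03). Tek, the angiopoietin receptor, lies on chromosome 4 (94739300 to 94874939). Its FPKM was 3.81 in the sham library (1.98 to 5.64), 3.12 in the WI library (1.59 to 4.66) and 1.65 in the IR library (0.760 to 2.54). For both genes most of the difference lay between WI and IR, and the bounds of sham and IR overlapped. Eng, or endoglin, a co-receptor for BMP9 and TGF-beta, lies on chromosome 2, and its locus in the files runs from 32646595 to 32694175 and takes in the neighbouring gene Fpgs. Its FPKM was 22.7 in the sham library (4.27 to 41.2), 18.4 in the WI library (5.93 to 30.9) and 15.7 in the IR library (4.89 to 26.6), the least precise values among the markers. Fpgs itself had an FPKM of 43.2, 27.2 and 30.8 in the same order, and its part in the values of Eng was not tested.

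The junction and adhesion genes among the markers, Cdh5 and Pecam1, were lowest in the WI library as deposited. Cdh5, or VE-cadherin, the cadherin of endothelial junctions, lies on chromosome 8 from 104101625 to 104144502. Its FPKM was 12.5 in the sham library (6.68 to 18.3), 8.15 in the WI library (4.38 to 11.9) and 16.9 in the IR library (8.95 to 24.8). Pecam1, an adhesion molecule of endothelial cell borders, lies on chromosome 11 (106654218 to 106715281). Its FPKM was 10.2 in the sham library (4.90 to 15.6), 6.52 in the WI library (3.43 to 9.61) and 7.74 in the IR library (3.73 to 11.7). As deposited, the IR library held the highest value of Cdh5 and the middle value of Pecam1, with overlapping bounds in both.

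FPKM is a level per length, so the levels can be ranked between genes. In the sham library the order from high to low was Clec4g, Fcgr2b, Eng, Cdh5, Lyve1, Kdr, Pecam1, Stab2, Stab1 and Tek, an 18.6-fold range. In the WI library Lyve1 took the 10th and lowest place, while in the IR library it stood in place 2 behind Clec4g. Kdr held place 6 in the sham library, 4 in the WI library and 8 in the IR library. In every library the bounds of each gene overlapped with those of the next in the order, so neighbouring places are not separated by their error. The FPKM of the 10 markers summed to 199 in the sham library, 151 in the WI library and 154 in the IR library. Lyve1 made up 5.60%, 1.81% and 21.6% of these sums, and Clec4g 35.5%, 37.1% and 26.8%.

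Between WI and sham, the comparison that shows the state at the end of ischemia, all 10 markers had a lower FPKM in the WI library, as did 47.3% of the genes that passed the filter. The differences in log2(FPKM + 1) ran from -1.71 for Lyve1 to -0.19 for Kdr, with a median of -0.41 against 0.02 over all genes. Lyve1 fell past 2-fold (1 of 10 markers, against 1.10% of all genes), and 0 markers rose past 2-fold (0.751% of all genes). Lyve1 was also the marker with bounds apart (1 of 10, against 0.676% of all genes), and its difference had a range of -2.55 to -0.86 when the bounds of both libraries were carried over. Among the other 9, Pecam1 and Cdh5 had the largest differences, -0.58 (range -1.49 to 0.33) and -0.56 (-1.42 to 0.30). The ranges of these 9 genes all included 0.

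Between IR and WI, the comparison that covers the 2 h of reperfusion, 7 of 10 markers were lower in the IR library (47.5% of all genes were). Lyve1 rose past 2-fold (1 of 10 markers, against 5.78% of all genes) with a difference of 3.21 (range 2.33 to 4.08). Its bounds were apart, which held for 1 of 10 markers and for 3.61% of all genes. Cdh5 came next with 0.96 (0.09 to 1.84), a range that excludes 0 although the bounds of the libraries overlapped. No marker fell past 2-fold (0 of 10, against 1.43% of all genes). Kdr had the lowest value, -0.85 (range -1.67 to -0.03), followed by Tek with -0.64 (-1.36 to 0.08) and Fcgr2b with -0.61 (-1.55 to 0.33). The median was -0.17 against 0.03 over all genes, a gap of -0.20 that was -0.23 after rescaling to TPM. After that rescaling Kdr, Tek and Fcgr2b fell past 2-fold and Lyve1 was still past it at 2.86. On that scale 14.5% of all genes changed past 2-fold in either direction. Bounds were apart for Lyve1 and Kdr, and Pecam1, 0.22 as deposited, turned below 0.

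**Figure D2:**
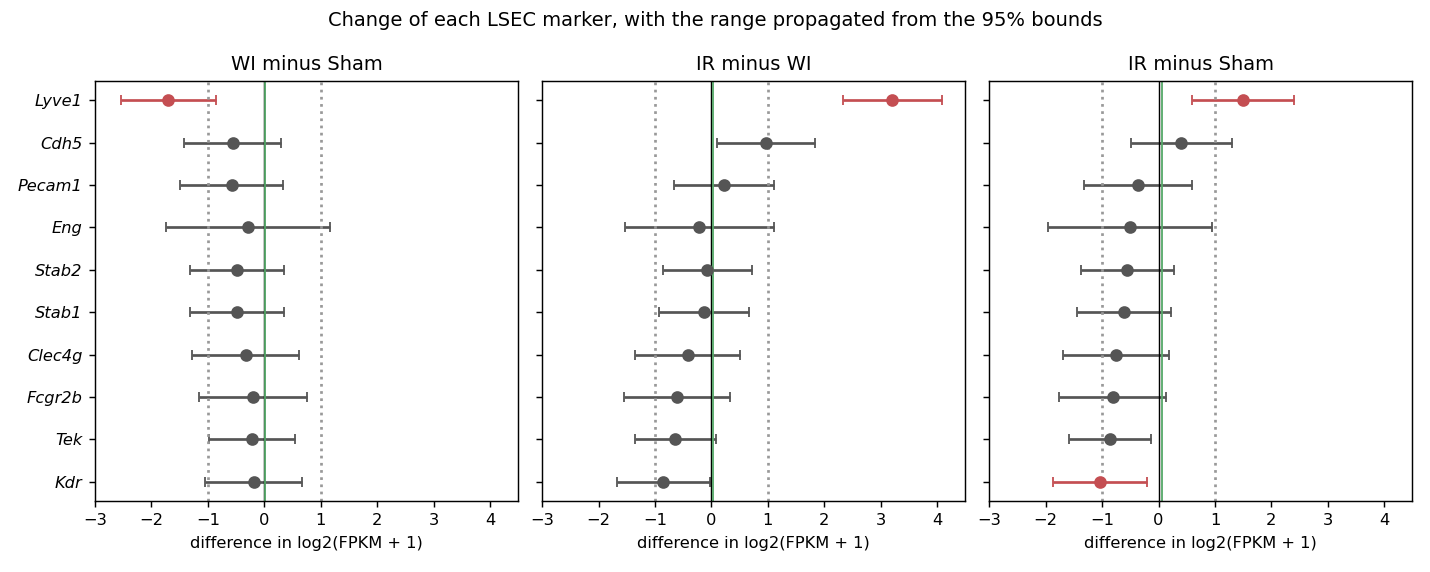
Differences in log2(FPKM + 1) of the 10 LSEC markers for WI minus sham, IR minus WI and IR minus sham; bars are ranges carried over from the 95% bounds of both libraries, red marks genes past 2-fold (dotted lines), the green line is the median of all genes. Lyve1 stands at -1.71, 3.21 and 1.5, and Kdr is past 2-fold at -1.04 in the last panel.

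Between IR and sham, 8 of 10 markers were lower in the IR library (45.6% of all genes were), with a median of -0.58 against 0.05 over all genes. Lyve1 rose past 2-fold with 1.5 (range 0.59 to 2.41), 1 of 10 markers against 5.35% of all genes. Kdr fell past it with -1.04 (range -1.87 to -0.21), 1 of 10 markers against 2.15% of all genes. Bounds were apart for Lyve1, again 1 of 10 markers against 3.82% of all genes, and they overlapped for Kdr. After rescaling to TPM this was turned around, with bounds apart for Kdr and Tek and overlapping for Lyve1. Tek had a difference of -0.86 (-1.59 to -0.13), Fcgr2b -0.81 (-1.76 to 0.13), Clec4g -0.76 (-1.70 to 0.18), Stab1 -0.61 and Stab2 -0.55. In FPKM without the added 1, the sham library was 2.31-fold higher than IR for Tek and 2.28-fold higher for Kdr. Cdh5 was the other marker above 0, with 0.41 (-0.48 to 1.30). Relative to all genes the median of the markers was -0.64, and -0.69 after rescaling to TPM. On that scale 7 markers fell past 2-fold (Stab1, Stab2, Clec4g, Kdr, Tek, Eng and Fcgr2b). Past it in either direction were 17.4% of all genes, whose median was itself -0.45. Lyve1 was no longer past 2-fold at 0.97, and Cdh5 turned to -0.14.

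Taking the libraries as a series, Stab1, Stab2, Clec4g, Kdr, Tek, Eng and Fcgr2b were lower at both steps (7 of 10 markers, against 20.6% of all genes). Lyve1 and Cdh5 were lowest in the WI library and highest in the IR library (2 of 10 markers, against 18.6% of all genes), and Pecam1 was lowest in WI and highest in sham. After rescaling to TPM Cdh5 was highest in sham (-0.14 for IR minus sham) and Pecam1 lowest in IR (-0.28 for IR minus WI). Because the WI library enters both steps, a low value in that library alone gives such a turn. Over the 3 libraries the genes whose centred log2(FPKM + 1) lay closest to the mean pattern of the markers were Gm6644, Gm6377, Spc25, B430306N03Rik and Serpinb6a. Pecam1 was the marker nearest to that mean, at a distance of 0.06 log2 units, and Lyve1 the farthest, at 2.18. There were 27 other genes as near as Pecam1, so likeness over 3 libraries says little about a gene.

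**Figure D3:**
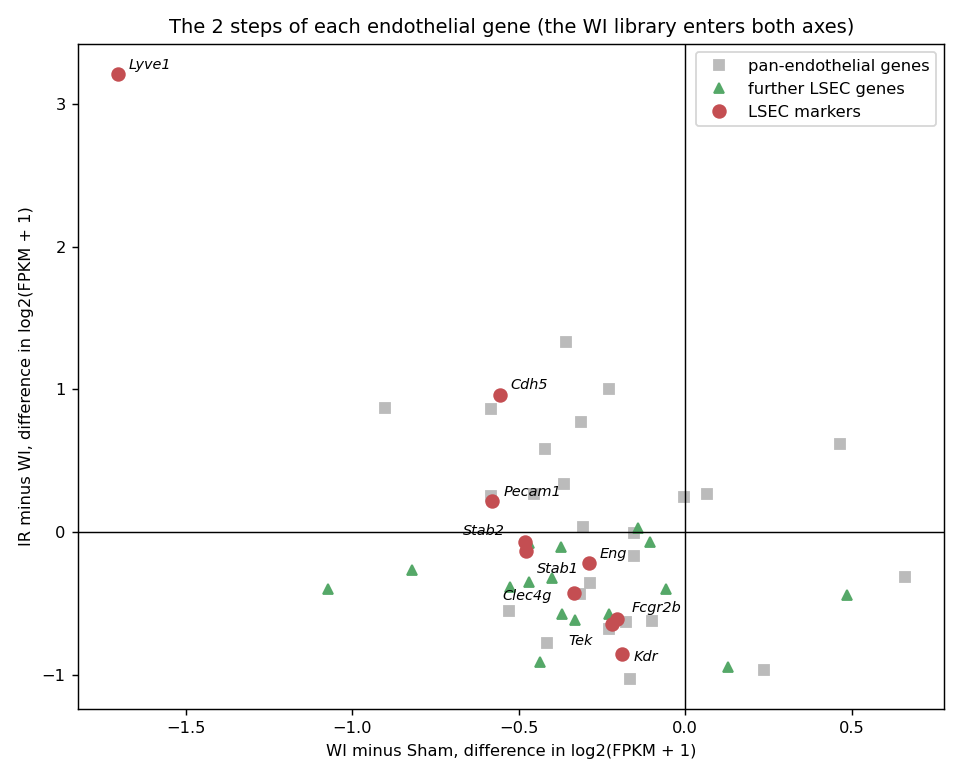
Each point is a gene, with its difference in log2(FPKM + 1) for WI minus sham on the horizontal axis and for IR minus WI on the vertical axis; LSEC markers are red circles, further LSEC genes green triangles and pan-endothelial genes grey squares. Lyve1 lies apart at -1.71 and 3.21, Cdh5 and Pecam1 lie above 0 on the vertical axis (Pecam1 turned below 0 after rescaling to TPM), and the other 7 markers lie below 0 on both axes.

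A second list holds 16 further genes that LSEC are known to make. It was also chosen with earlier results of these data known, so it is no independent check of the markers. From sham to IR its median was -0.81, with 15 of 16 lower in the IR library (45.6% of all genes were). From sham to WI it was -0.37, with 14 of 16 lower (47.3% of all genes). From WI to IR it was -0.39, with 15 of 16 lower (47.5% of all genes). The part of cells other than LSEC in the values of this list, Clec1b among them, was not tested. Clec1b, a C-type lectin receptor, fell past 2-fold from sham to WI (-1.07) and from sham to IR (-1.47). Its FPKM was 22.0, 9.91 and 7.30 in the sham, WI and IR libraries. Ehd3, an endocytic trafficking protein of sinusoidal endothelium, had an FPKM of 24.8, 18.1 and 9.18 and fell by 1.34 on the log2 scale from sham to IR. Mrc1, the mannose receptor, which macrophages make too, had an FPKM of 19.6, 10.6 and 8.68 and fell by 1.09. Maf, a transcription factor of mature LSEC, had a difference of -0.95 from sham to IR without passing 2-fold, and Gata4, another such factor, -0.17. At both steps 13 of the 16 genes were lower (20.6% of all genes were). As deposited, 0 were lowest in WI and highest in IR as Lyve1 and Cdh5 were (18.6% of all genes).

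Genes shared by endothelium of all kinds were more divided. Of 27 listed genes, 25 passed the filter, and their median was -0.29 from sham to WI with 21 of 25 lower (47.3% of all genes). From WI to IR 13 were higher and 12 lower (47.5% of all genes were lower). The median of 0.03 at that step turned to -0.38 after rescaling to TPM. From sham to IR Clec14a, Ramp2 and Ptprb fell past 2-fold, with -1.19, -1.19 and -1.08. Clec14a, an endothelial lectin, had bounds that were apart, at an FPKM of 5.51 in the sham library (2.92 to 8.10) and 1.85 in the IR library (0.858 to 2.85). Cldn5, a tight junction claudin, rose past 2-fold from sham to IR with 1.08, its FPKM being 3.70, 5.48 and 8.93 in the sham, WI and IR libraries. From WI to IR Clec14a fell by 1.02 (FPKM 4.80 and 1.85), Cyyr1 rose by 1.34, and Rasip1, a regulator of vascular lumen formation, just passed 2-fold (FPKM 1.89 and 4.81). Esam and Robo4, other endothelial surface proteins, had differences of 0.86 and 0.77 at that step, close to the 0.96 of Cdh5.

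The partners of the receptors are given by role. For Kdr, the ligand Vegfa had an FPKM of 23.8, 26.4 and 22.2 in the sham, WI and IR libraries, with bounds that overlapped, while the receptor fell past 2-fold from sham to IR. Of 9 VEGF ligands and receptors 7 passed the filter, with 0 of them past 2-fold in any comparison. Past 2-fold were 1.85% (WI against sham), 7.21% (IR against WI) and 7.50% (IR against sham) of all genes. The co-receptor Nrp1 had the highest value, 0.92 from sham to IR (FPKM 11.8, 13.8 and 23.2). Flt1, another VEGF receptor, was lowest in the WI library (FPKM 2.17, 1.46 and 2.10). For Tek, 3 of 6 ligands and partners passed. Angpt2, the ligand that endothelial cells release on activation and that can act against signaling by Tek, had an FPKM of 0.665 in the sham library (0.112 to 1.22), 0.233 in the WI library (0 to 0.524) and 2.68 in the IR library (1.19 to 4.17), and it rose by 1.58 from WI to IR with bounds apart. Ptprb, an endothelial phosphatase that acts on Tek and VE-cadherin, fell by 1.08 from sham to IR. The receptor and the phosphatase thus were both lowest in the library where the ligand was highest. Tie1, the remaining partner that passed, did not share this, with an FPKM of 5.32, 3.62 and 4.57 in the sham, WI and IR libraries.

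For Eng, 15 of 15 genes of the BMP9 pathway passed. Their median was -0.25 from sham to IR, where 11 were lower (45.6% of all genes were). Gdf2, which encodes BMP9, had an FPKM of 9.19 in the sham library (4.92 to 13.5), 5.93 in the WI library (3.10 to 8.77) and 2.13 in the IR library (0.957 to 3.31), a fall of 1.70 from sham to IR with bounds apart. Bmp10, the related ligand, had a difference of -0.94. The receptor Acvrl1 had -0.57 and the inhibitors Smad6 and Smad7 -0.62 and -0.62. The Id genes, targets of BMP signaling in many cell types, did not share a direction. Id3 rose by 1.83 and Id2 by 1.31 from sham to IR, whereas Id1 had -0.23. For Cdh5, 11 of 12 junction partners passed, and 1 of them, Cldn5, changed past 2-fold from sham to IR (7.50% of all genes did). The catenins Ctnnb1, Ctnnd1 and Ctnna1 had differences of -0.10, -0.14 and 0.34. The median of the 11 partners was 0.28 from sham to IR and -0.26 after rescaling to TPM, so no direction is given for the group. For the scavenger markers, all 12 of a list of scavenger and Fc receptors passed. Of these, 11 of 12 were lower in WI than in sham (47.3% of all genes were), and the median was -0.42. From WI to IR their median was 0.10, and -0.44 after rescaling to TPM. Fcgr3, an activating Fc receptor of myeloid cells, rose by 1.22 from WI to IR, where Fcgr2b had -0.61.

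Genes that endothelium makes when activated moved the other way from most markers. Of 8 listed, 7 passed, and 5 of 7 rose past 2-fold from WI to IR (5.78% of all genes did), with a median of 1.63. Sele, or E-selectin, went from an FPKM of 0.0340 in the WI library (0 to 0.0767) to 2.49 in the IR library (1.13 to 3.84). Icam1, an adhesion molecule for leukocytes, went from 6.91 (3.60 to 10.2) to 23.4 (12.5 to 34.3). Selp, or P-selectin, had 0.415 and 8.39, with a lower bound of 0 in both libraries. Sele, Selp and Angpt2 reached an FPKM of 1 in the IR library only, so they passed the filter through the library where they were high. The count of 5 of 7 and the median were therefore partly set by the filter. Vcam1, also an adhesion molecule, fell by 1.84 from sham to WI with bounds apart, its FPKM being 30.5, 7.76 and 10.8 in the sham, WI and IR libraries. Lyve1, Sele, Selp and Icam1 share a high IR value, but in the WI library Lyve1 was low while Icam1 was near its sham level (FPKM 5.58 in sham). Being lowest in WI and highest in IR was not particular to Lyve1. It held for 2 of 7 genes of this list (18.6% of all genes), among them Angpt2 (FPKM 0.665, 0.233 and 2.68). It also held for Thbd of the central endothelial list (3.58, 1.93 and 21.5).

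**Figure D4:**
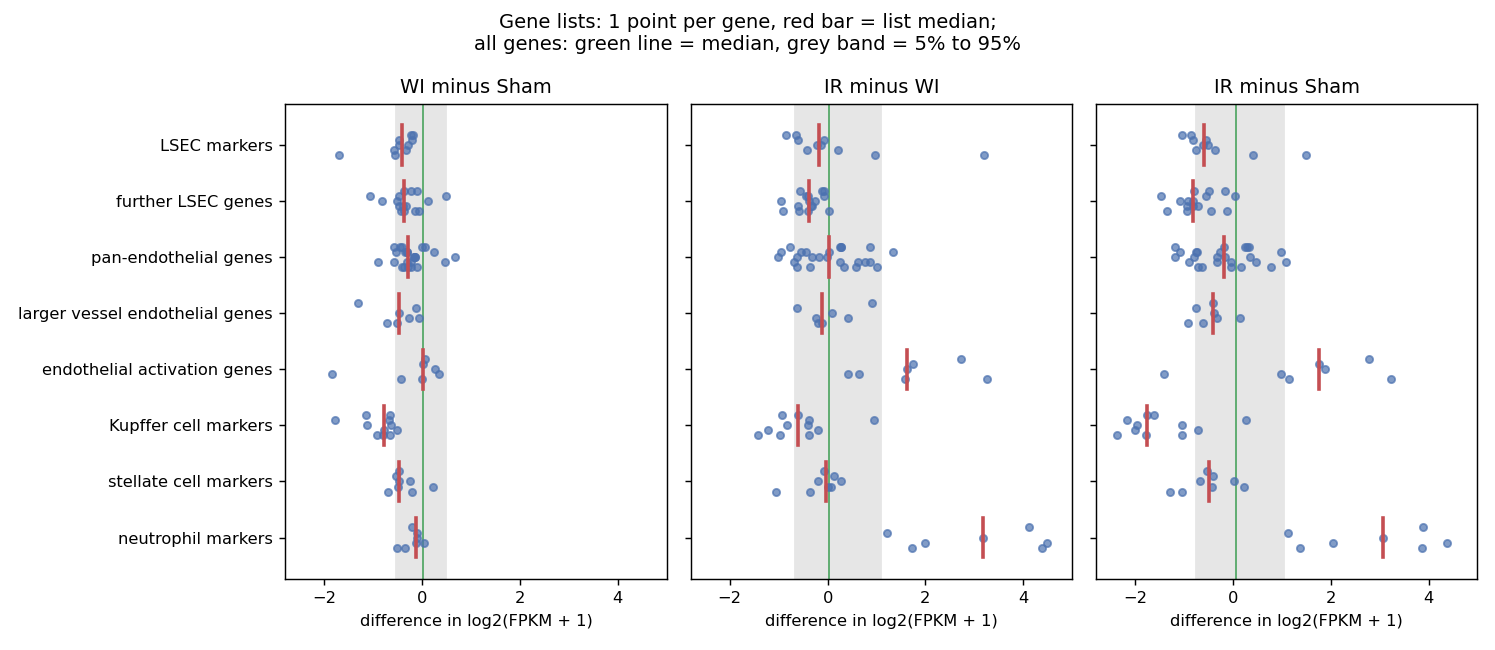
Differences in log2(FPKM + 1) for 8 gene lists in the 3 comparisons; each point is a gene that passed the filter, the red bar is the median of its list, the green line the median and the grey band the 5% to 95% range of all genes. The LSEC markers have medians of -0.41, -0.17 and -0.58, the Kupffer cell markers -0.78, -0.61 and -1.76, and the neutrophil markers -0.12, 3.18 and 3.07.

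Markers of other cell types did not share a direction between WI and IR. The 11 Kupffer cell markers, of the resident macrophages of the sinusoids, had medians of -0.78 from sham to WI, -0.61 from WI to IR and -1.76 from sham to IR. From sham to IR 9 of 11 fell past 2-fold (2.15% of all genes did) and 0 rose past it (5.35% of all genes did). Their FPKM summed to 871, 493 and 348 in the sham, WI and IR libraries, and 0 of the 11 were at 0. The macrophage genes Clec4f and Vsig4 went from an FPKM of 115 and 67.8 in the sham library to 32.7 and 12.4 in the IR library. Marco was the exception, with 20.9, 12.6 and 25.3. Stab1, Lyve1, Fcgr2b and Mrc1 can come from macrophages as well, and the part of these cells in their values was not tested. Neutrophil markers rose past 2-fold from WI to IR in 7 of 7 that passed, of 9 listed (5.78% of all genes rose so). Their median was 3.18, and their FPKM summed to 25.9, 19.6 and 471 in the sham, WI and IR libraries. Ngp, Cxcr2 and Mmp8 reached an FPKM of 1 in the IR library only, so they passed the filter through the library where they were high. Camp, with an FPKM of 0.152, 0.0673 and 0.0953, did not pass. The count of 7 of 7 and the median were therefore partly set by the filter. The 5 B cell markers summed to 5.46, 3.01 and 2.19, with 2 of 5 past the filter, and the 6 platelet markers to 3.10, 2.69 and 5.66, also with 2 past it. Of the 3 lymphatic markers, Pdpn did not pass the filter, with an FPKM of 0.0884, 0.121 and 0.140 in the sham, WI and IR libraries. Ccl21a had 1.21, 1.22 and 3.09, and Prox1, which hepatocytes make too, had 15.3, 13.6 and 7.60. The part of lymphatic vessels, B cells and platelets in the values of Lyve1, Fcgr2b and Pecam1 was not tested.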

How the data were processed

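The mRNA of whole liver was sequenced in 3 libraries (sham, WI and IR), grouped by their titles in the labels. Per the submitters' processing notes, reads were aligned to mm10 with TopHat2 2.0.9 and quantified with Cufflinks 2.0.2. The deposited values are FPKM per gene, made by the authors, with 95% bounds and a status from Cuffdiff. The files used here give no counts per gene, so the number of fragments behind a value is unknown and the bounds are its precision. Per the study's read statistics, the share of read pairs that aligned uniquely was lowest in the IR library. The part of this in the IR values was not tested.

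Differences of log2(FPKM + 1) were computed with a pseudocount of 1 in Python 3.11.15 (numpy 2.4.6, pandas 2.3.3, matplotlib 3.10.9). Genes were kept if 1 or more libraries reached an FPKM of 1. A gene could thus pass through 1 library alone, as Sox9 (cholangiocyte list) and Ppbp (platelet list) did through the IR library. Counts and medians of rises to IR are partly set by this rule. Ranges combine the bounds of both libraries. They and the fold threshold of 2 were run on simulated data with noise set from these same bounds. For the threshold that noise was smaller than the bounds give. The simulation therefore checks the computation and cannot show the spread between mice. No test was run, since each condition has 1 library. Starts in the files were 1 base lower than the RefSeq start for 10559 of 21523 matched genes, so 1 was added to every start. Promoters came from RefSeq GRCm38.p6.

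The markers and 24 other gene lists were chosen with earlier results of these data known. Named were all markers, of each list up to 5 genes past 2-fold per comparison or else the gene with the highest level and the largest rise and fall, the 5 genes nearest in pattern, and the sex-linked genes. Maf, Gata4, Esam, Robo4, Bmp10, Acvrl1, Smad6, Smad7, Id1, Pdpn and the catenins were named for their roles after their values were seen. Tie1, Flt1, Ngp and Camp were also named after their values were seen. Alternatives covered the pseudocount, the filter, the scaling, the status and the fold threshold. The clamping and reperfusion times are those of the study's methods. The values of 1 gene of the activation list are not reported here.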

Additional observations from a re-analysis of the deposited data

How the results depend on the processing

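No paired analysis was possible because each condition has 1 library, and for the same reason no library could be left out. Of the alternatives run, 476 counts and medians and 237 differences of single markers moved by no more than their spread (for counts, at most 1.5 times), and 52 moved by more. No value past 2-fold as deposited changed sign (0), but 25 smaller ones did, 2 of single markers (Pecam1 for IR against WI and Cdh5 for IR against sham, both on the TPM scale) and 23 medians of lists, 13 of all 25 on the TPM scale. The spread was taken from the 95% bounds, so it is wide, and a marker can cross 2-fold within it, as Lyve1 did between IR and sham on the TPM scale. The values that moved are differences in log2(FPKM + 1) or counts of LSEC markers. After rescaling to TPM the count past 2-fold was 4 (IR against WI) and 7 (IR against sham), against 14.5% and 17.4% of all genes. Bounds were apart for 2 (Lyve1 and Kdr) and 2 markers (Kdr and Tek, no longer Lyve1). The share of all genes with bounds apart was not computed on that scale. On that scale the medians for IR against WI and IR against sham were -0.69 and -1.15 for the LSEC markers, -0.91 and -1.39 for further LSEC genes, -0.38 and -0.72 for pan-endothelial genes, and -0.65 and -0.96 for larger vessel genes. They were -0.56 and -0.66 for VEGF genes, -0.54 and -0.79 for the BMP9 pathway, -0.12 and -0.26 for VE-cadherin partners, and -0.44 and -0.84 for scavenger receptors. They were -1.15 and -2.35 for Kupffer cell markers and -0.51 and -1.06 for stellate cell markers, and central endothelial genes had -0.47 for IR against sham. The median of all genes moved to -0.45 in both comparisons by construction of that scale, since the sum of the IR library was the largest. Rescaling by the median ratio instead gave medians of -0.18 (IR against WI) and -0.59 (IR against sham) for the LSEC markers. On that other scale the same markers were past 2-fold and had bounds apart as in the deposited values. With a pseudocount of 0.1 or of 0.01, 2 markers (Lyve1 and Cdh5) passed 2-fold between IR and WI. With 0.1, the medians were 3.06 for activation genes (IR against WI), 4.51 and 4.05 for neutrophil markers (IR against WI and sham), and 1.34 for cholangiocyte markers (IR against sham). With 0.01 they were 3.47, 4.53 and 4.52, and 1.45, and neutrophil markers had -0.52 for WI against sham. Without a filter neutrophil markers had 2.59 and 2.56. With a minimum FPKM of 1 in all libraries they had 4.39 and 3.89, and central endothelial genes 1.22 and 1.03. With a minimum of 5 in 1 or more libraries, neutrophil markers had 4.25 and 3.88, central endothelial genes 2.53 and 2.14, and the BMP9 pathway 0.27 and 0.087. A threshold of 1.5 gave 5 markers (IR against WI) and 6 (IR against sham), against 19.8% and 23.8% of all genes. One of 4 gave 0 for WI against sham and 0 for IR against sham, against 0.222% and 1.54% of all genes. The causes of these moves were not tested beyond the scale itself. Without counts or replicates, no difference smaller than the bounds can be resolved.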

Other observations

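Other endothelial lists were read in the same libraries. Of 7 genes of central endothelium, 6 passed the filter, with medians of -0.25 (WI minus sham), 0.26 (IR minus WI) and -0.03 (IR minus sham). Thbd, or thrombomodulin, had an FPKM of 3.58, 1.93 and 21.5 in the sham, WI and IR libraries, and Fabp4, a fatty acid binding protein, had 15.5, 14.0 and 64.4. Both were past 2-fold in IR against each other library, with bounds apart. The 5 of 7 shear-responsive genes that passed, a list that shares Thbd, had medians of -0.34, 0.20 and 0.16. The 4 of 6 periportal genes that passed had -0.39, -0.23 and -0.49, with 0 past 2-fold (1.85%, 7.21% and 7.50% of all genes). Of 10 genes of larger vessels 7 passed, with -0.47, -0.11 and -0.40, and the gap junction gene Gja4 fell by 1.31 from sham to WI (FPKM 10.9, 3.80 and 8.06 in the sham, WI and IR libraries). The 3 of 7 hyaluronan handling genes that passed had -0.26, 0.37 and -0.31. The 2 of 3 lymphatic markers that passed had -0.07, 0.06 and -0.02. After rescaling to TPM the IR minus WI medians of central, shear-responsive and hyaluronan handling genes turned to -0.08, -0.23 and -0.06, and that of shear-responsive genes for IR minus sham to -0.21.

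Other cell types differed among themselves. The 8 stellate cell markers had medians of -0.47, -0.03 and -0.49, and Lrat and Colec11 fell from sham to IR by 1.28 and 1.05. The 4 of 6 cholangiocyte markers that passed had 0.13, 0.60 and 0.81. Of 10 hepatocyte markers 8 passed, with -0.17, 0.20 and 0.06 (-0.34 and -0.52 for the last pair after rescaling to TPM), and Alb was listed at 0 in all 3 libraries because its locus held too many fragments for Cuffdiff (status HIDATA). The 5 erythroid genes in the files had -0.35, 2.07 and 1.47, and their FPKM summed to 751, 518 and 1976. The 2 of 8 T and NK cell markers that passed had -0.06, -0.83 and -0.89, the 2 B cell markers -0.50, -0.18 and -0.68, and the 2 platelet markers -0.09, 0.66 and 0.57. The part of these cells in the levels of the LSEC markers was not tested.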
